A study of Saccharomyces cerevisiae with 50 samples.

Results

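The genes of trehalose metabolism in budding yeast, Saccharomyces cerevisiae, were followed through mRNA sequencing and ribosome profiling. They are 9 genes grouped by their function in trehalose synthesis and breakdown: TPS1 (YBR126C), TPS2 (YDR074W), TPS3 (YMR261C), TSL1 (YML100W), NTH1 (YDR001C), NTH2 (YBR001C), ATH1 (YPR026W), PGM2 (YMR105C) and UGP1 (YKL035W). All 9 were found by their identifiers in every count table, out of 5743 genes with mRNA counts for the deletion strains and 5666 genes with footprint counts, and all 9 passed the filter on low counts in every fit. The study deposited 50 samples in 17 groups. Each of 5 strains of the BY4741 background (MATa his3Δ1 leu2Δ0 met15Δ0 ura3Δ0) lacked 1 ribosomal protein (RP) gene, replaced by a kanMX4 cassette: Δrpl7a and Δrpl9a, which the study describes as long-lived, and Δrpl6a, Δrpl15b and Δrps27b, which it describes as short-lived. The reference was wild-type BY4741. Each strain had 3 libraries for mRNA and 3 for footprints, but Δrpl6a had only 2 for footprints. For strains that overexpress the transcription factor Gcn4 there was mRNA alone, again in 3 libraries per strain. In this set, PADH1-GCN4 has the constitutive ADH1 promoter at the chromosomal GCN4 gene, and S242L has the same promoter with the mutant Gcn4 that its name gives; both were set against wt(met), and all 3 of these strains carry MET15. PGAL-GST-GCN4 holds GCN4 fused to GST on a plasmid under the galactose-inducible GAL1-10 promoter, and was set against wt(ura3), which holds a plasmid with another backbone.

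Trehalose is a disaccharide of glucose that yeast stores alongside glycogen and builds up when growth slows or under heat, where it protects proteins and membranes. Its synthesis starts from glucose 6-phosphate, which phosphoglucomutase (Pgm2 is the major form) turns into glucose 1-phosphate, and UDP-glucose pyrophosphorylase (Ugp1) turns that into UDP-glucose, also the donor for glycogen and cell wall glucan. The synthase complex joins UDP-glucose to glucose 6-phosphate: Tps1 makes trehalose 6-phosphate, Tps2 removes the phosphate, and Tps3 and Tsl1 are regulatory subunits. The neutral trehalases Nth1 and Nth2 and the acid trehalase Ath1 split trehalose back into glucose, so that genes of synthesis and of breakdown both belong to the group.

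Each of the genes has 1 coding exon. In the R64 assembly the coding sequences lie at chrII:488905-490392 on the minus strand (TPS1), chrIV:593893-596583 on the plus strand (TPS2), chrXIII:790205-793369 on the minus strand (TPS3), chrXIII:70624-73920 on the plus strand (TSL1), chrIV:450220-452475 on the minus strand (NTH1), chrII:238941-241283 on the minus strand (NTH2), chrXVI:615379-619014 on the plus strand (ATH1), chrXIII:475897-477606 on the minus strand (PGM2) and chrXI:369891-371390 on the plus strand (UGP1). Stretches of 28 bases that occur unchanged elsewhere in the genome were found only in the related pair NTH1 and NTH2, 6 in each coding sequence (0.269% and 0.259% of its stretches). By exact matches, uniquely aligned reads could thus tell all 9 genes apart over nearly all of their length. The alignment of the study did not require a perfect match, and inexact matches were not searched.

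The zinc finger factors Msn2 and Msn4 bind the stress response element, whose core is CCCCT, read as AGGGG on the other strand. The core was counted on both strands of the 500 bases before each start codon, in the R64 genome of RefSeq, with no other motif searched. It occurred 6 times before TPS1, 5 times before TSL1 and before PGM2, 4 times before TPS2 and before UGP1, 3 times before NTH1, 2 times before TPS3, 1 time before ATH1 and 0 times before NTH2. Of 6000 such windows of the genome, 34.1% held the core at least 1 time, 8.13% at least 2 times and 1.83% at least 3 times. The matches before TSL1 and PGM2 are shown because these genes had the largest mRNA differences described below, and the single match before ATH1 because it is the only one of its window. Each sequence runs 5′ to 3′ on the coding strand of the gene, with the core in capitals and its distance from the start codon in bases.
TSL1, -378, chrXIII:70234-70262, plus strand: gttcagggtaaaAGGGGcgaaacagaggg
TSL1, -326, chrXIII:70286-70314, plus strand: cgggtcaccccgCCCCTgcattttgatat
TSL1, -231, chrXIII:70381-70409, plus strand: agggagataggaAGGGGcgggggtccggg
TSL1, -179, chrXIII:70433-70461, plus strand: tagggaaggagaAGGGGgtagaaccaagg
TSL1, -165, chrXIII:70447-70475, plus strand: ggggtagaaccaAGGGGctagcacactca
PGM2, -406, chrXIII:477996-478024, minus strand: cacacgctgctgCCCCTgagcttgcgagc
PGM2, -359, chrXIII:477949-477977, minus strand: cttgttctttctAGGGGggagaggcccaa
PGM2, -305, chrXIII:477895-477923, minus strand: gagctcacgaaaAGGGGtggtgtcgcgca
PGM2, -259, chrXIII:477849-477877, minus strand: aacttacgtgaaAGGGGacgttatacttt
PGM2, -216, chrXIII:477806-477834, minus strand: ccaggaacaaacAGGGGttgaaaagtgta
ATH1, -304, chrXVI:615063-615091, plus strand: atctcttctttgCCCCTcaaaatttattt

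**Figure D1:**
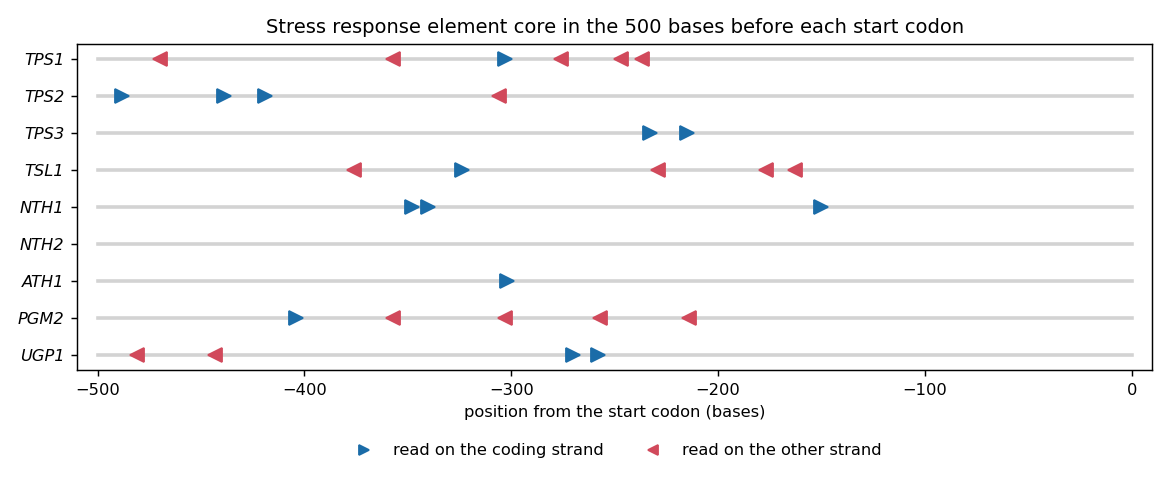
Position of each core of the stress response element (CCCCT or AGGGG) in the 500 bases before the start codon of each gene, in bases from the start codon; arrowheads mark the strand on which CCCCT is read. TPS1 holds 6 matches, TSL1 and PGM2 hold 5 each, and NTH2 holds 0.

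Depth, as the summed count of a library, ran from 5709195 to 12696200 in the mRNA set that holds the deletion strains, from 8092039 to 15437373 in the footprint set, from 14061819 to 25642672 in the set with the ADH1 promoter strains and from 10722664 to 13693442 in the plasmid set. The deleted gene was at 4.28 CPM (counts per 1000000, after scaling of the libraries to each other) or less in the mRNA of every library of its own strain, and at 46.1 CPM or more in every wild-type library. In footprints it was at 16.5 CPM or less. The highest was RPL15B, at 8.70 to 16.5 CPM in Δrpl15b against 67.2 to 82.5 CPM in the wild type. One marker of genotype went against the shared background: MET17, another name of MET15, was at 39.6 to 51.8 CPM in the mRNA of Δrps27b and at 0.165 CPM or less in all remaining mRNA libraries of that set. LEU2 was at 4097 to 5307 CPM in PGAL-GST-GCN4 and at 1.81 to 3.37 CPM in wt(ura3). Genes on chromosome XI had a median log2 fold change of 0.95 for mRNA and 0.90 for footprints in Δrps27b against wild type, and UGP1 is the only one of the 9 genes on it; genes on chromosome XII had medians of 0.63 and 0.54 in Δrpl6a, and none of the 9 is on it. Among mRNA libraries, the third library was the lowest for 9 of the 9 genes in Δrpl7a, in Δrpl9a and in Δrpl6a, for 8 in Δrps27b, for 4 in the wild type and for 2 in Δrpl15b. Every result against wild type below shares the same 3 wild-type libraries per assay across the strains.

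In the wild type, UGP1 and TPS1 had the highest mRNA levels of the group and ATH1 the lowest. Per kilobase of coding sequence, mRNA was at 180.6 CPM ± 9.61 for UGP1, 126 ± 23.1 for TPS1, 59.7 ± 12 for TPS2, 49.0 ± 1.68 for NTH1, 37.2 ± 2.30 for TPS3, 29.4 ± 10.8 for TSL1, 22.8 ± 5.01 for PGM2, 18.3 ± 0.786 for NTH2 and 5.79 ± 0.201 for ATH1 (SD, n = 3). The catalytic subunit thus stood above its regulatory subunits, and Nth1 mRNA above that of the other trehalases. The spreads of 1 SD overlapped between TPS2 and NTH1, between TPS3 and TSL1, between TSL1 and PGM2 and between PGM2 and NTH2, so that these neighbours could not be ordered. Footprints per kilobase also had UGP1 at the top and ATH1 at the bottom, with UGP1 at 308 ± 23.6 CPM, TPS1 at 157 ± 23.8 CPM and ATH1 at 3.61 ± 0.285 CPM (SD, n = 3).

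The first comparison asked how the mRNA of these genes differed between each RP deletion strain and the wild type. In the long-lived strains the whole group was higher. In Δrpl7a all 9 genes passed the test (the quasi-likelihood test of edgeR, Benjamini-Hochberg adjusted over all genes; a call needs an adjusted p under 0.01 together with a fold change of more than 2), against a background of 12.3% of 5490 genes called higher. In Δrpl9a 8 of 9 passed, all but ATH1, against 6.78% of genes called higher. The median log2 fold change of the group was 2.10 in Δrpl7a and 1.46 in Δrpl9a, beside 0.03 and 0.00 over all genes tested. For all 9 genes every library of both strains lay above every wild-type library. The share of all genes that separated like this was not counted, here or in the later comparisons. The libraries are of bulk cultures and a CPM is a share of a library. A larger number of cells expressing a gene and more of its RNA per cell thus cannot be told apart.

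TSL1, a regulatory subunit of the synthase, showed the largest mRNA difference within the complex. Its level was 110.0, 124 and 56.8 CPM in the 3 wild-type libraries, 1927, 1672 and 752 CPM in Δrpl7a, and 1214, 1021 and 484 CPM in Δrpl9a. The lowest library of either deletion strain was thus well above the highest of the wild type. TSL1 mRNA was 15-fold higher in Δrpl7a (log2 3.90 ± 0.44 SE, adjusted p = 2.93e-06) and 9.35-fold higher in Δrpl9a (3.22 ± 0.43, adjusted p = 4.65e-05).

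TPS2, which encodes the phosphatase of the complex, followed. Its mRNA was at 174, 184 and 124 CPM in the wild type, 1603, 1599 and 656 CPM in Δrpl7a, and 1009, 948 and 528 CPM in Δrpl9a. The difference was 8.01-fold in Δrpl7a (log2 3.00 ± 0.32, adjusted p = 1.68e-06) and 5.16-fold in Δrpl9a (2.37 ± 0.31, adjusted p = 4.6e-05). TPS1, which encodes the synthase itself, was at 215, 199 and 149 CPM in the wild type, 1126, 1084 and 505 CPM in Δrpl7a and 779, 759 and 385 CPM in Δrpl9a. It was 4.83-fold higher in Δrpl7a (log2 2.27 ± 0.31, adjusted p = 1.83e-05) and 3.42-fold higher in Δrpl9a (1.77 ± 0.31, adjusted p = 0.000455). TPS3, the other regulatory subunit, rose least of the 4 genes of the complex, with a log2 fold change of 1.44 ± 0.18 in Δrpl7a and 1.12 ± 0.18 in Δrpl9a (adjusted p = 6.67e-06 and 0.000228), from 113 to 126 CPM in the wild type to 221 to 378 CPM and 206 to 288 CPM.

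The genes that supply UDP-glucose rose as well. PGM2 mRNA was at 40.8, 46.6 and 29.8 CPM in the wild type, 941, 870.4 and 289 CPM in Δrpl7a, and 528, 623 and 185 CPM in Δrpl9a. This was the largest difference of the group, 17.9-fold in Δrpl7a (log2 4.17 ± 0.54, adjusted p = 9.53e-06) and 11.4-fold in Δrpl9a (3.51 ± 0.53, adjusted p = 0.00013). UGP1 mRNA was at 255, 283 and 275 CPM in the wild type, 1343, 1449 and 667 CPM in Δrpl7a and 784, 938 and 489.9 CPM in Δrpl9a. Its log2 fold changes were 2.09 ± 0.27 and 1.44 ± 0.26 (adjusted p = 8.23e-06 and 0.00061).

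The genes of trehalose breakdown moved in the same direction as those of synthesis. The main neutral trehalase gene NTH1 was at 108, 115 and 109 CPM in the wild type, 481, 470.2 and 268 CPM in Δrpl7a, and 326, 344 and 189 CPM in Δrpl9a. Its log2 fold change was 1.88 ± 0.24 in Δrpl7a and 1.37 ± 0.23 in Δrpl9a (adjusted p = 7.78e-06 and 0.000392). NTH2, its paralog, had log2 fold changes of 2.10 ± 0.23 and 1.46 ± 0.22 (adjusted p = 1.82e-06 and 0.000164), from 41.7 to 45.0 CPM in the wild type to 115 to 234 CPM in Δrpl7a and 87.0 to 137 CPM in Δrpl9a. ATH1, the acid trehalase, was at 21.0, 20.3 and 21.8 CPM in the wild type, 76.8, 75.6 and 43.6 CPM in Δrpl7a, and 43.7, 40.0 and 26.6 CPM in Δrpl9a. It was called in Δrpl7a (log2 1.63 ± 0.21, adjusted p = 8.82e-06), while in Δrpl9a its fold change of 1.74 stayed below the fold threshold (log2 0.80 ± 0.21, adjusted p = 0.00805).

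Same-numbered libraries of the mRNA comparisons deviated together, and each ratio of a deletion library to the wild-type library of its number was above 1 in both long-lived strains, for example 13.2 to 17.5 for TSL1 in Δrpl7a and 8.21 to 11 in Δrpl9a. The third libraries were 1.68 to 3.13 times below the mean of the other two across the genes in Δrpl7a. Leaving out each library in turn kept the count at 9 in Δrpl7a and at 8 in Δrpl9a.

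**Figure D2:**
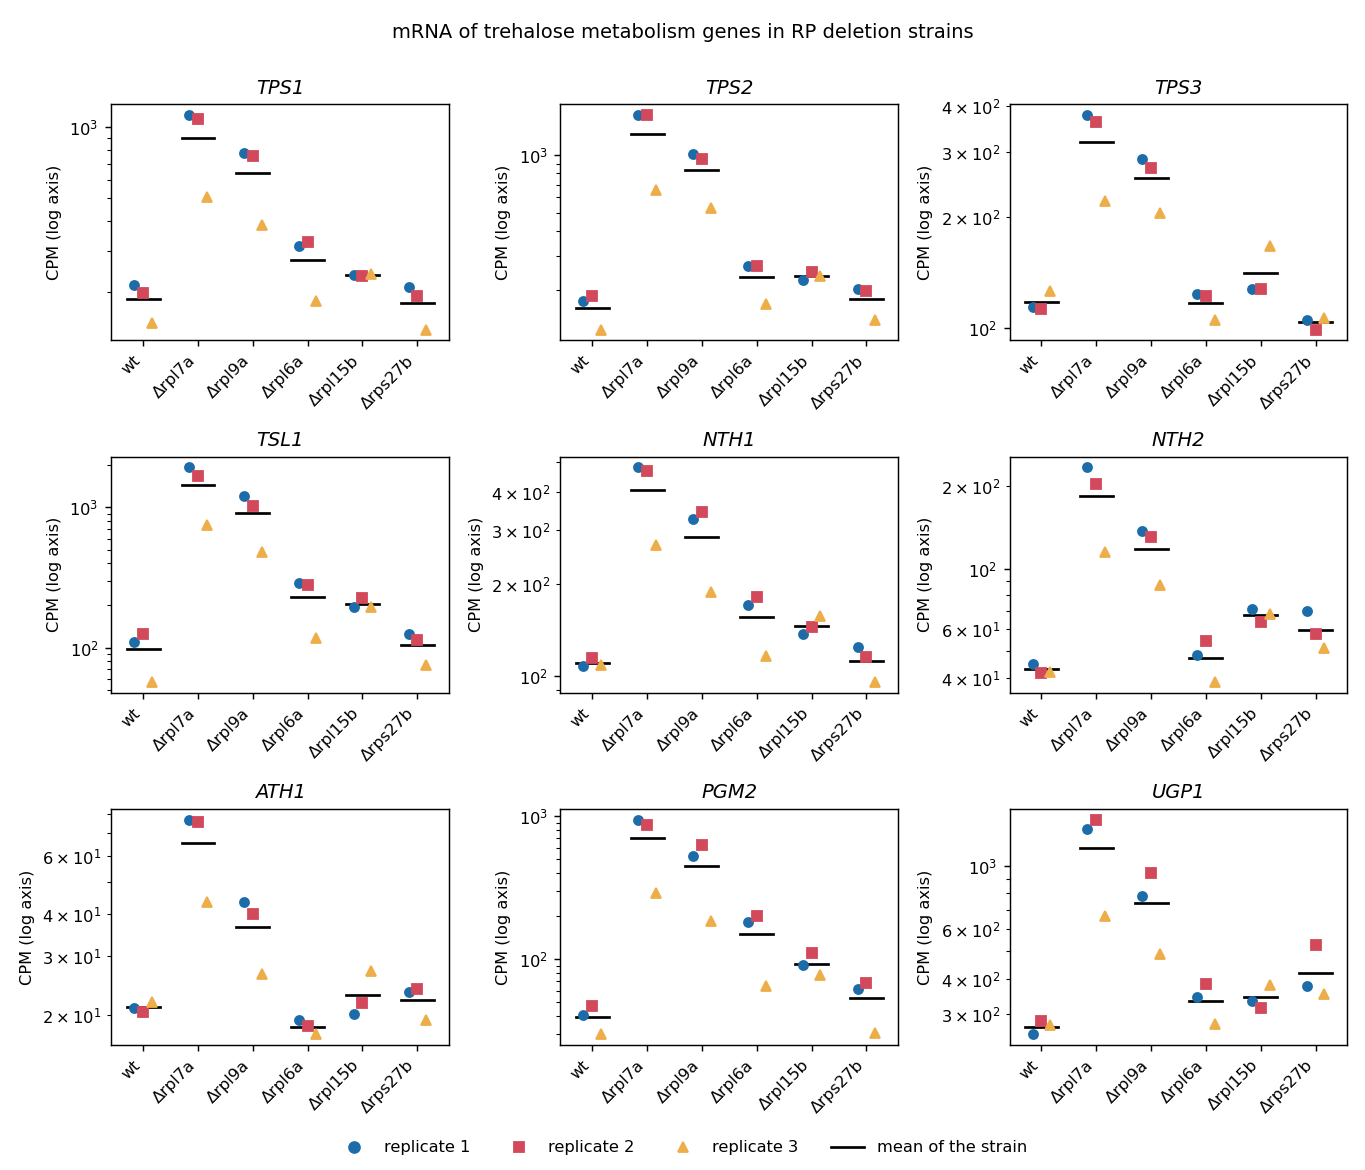
mRNA level of each gene (CPM, log axis) in each library of the wild type and the 5 RP deletion strains; points are libraries by replicate number and bars are strain means. TSL1 reached 752 to 1927 CPM in Δrpl7a and 56.8 to 124 CPM in the wild type, and the third library was lowest in Δrpl7a, Δrpl9a and Δrpl6a for every gene.

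In the short-lived strains the mRNA of these genes was closer to that of the wild type. In Δrpl6a 0 of 9 genes were called, where 5.05% of all genes were called; 3 had an unadjusted p below 0.05, and DESeq2 called 1. PGM2 had the largest value, at 181, 199.8 and 64.9 CPM (log2 1.93 ± 0.50, adjusted p = 0.0107), and TSL1 followed at 288, 282 and 117 CPM (1.24 ± 0.40, adjusted p = 0.0363). The PGM2 libraries of Δrpl6a all lay above the wild type, whereas its TSL1 library numbered 3 fell within the wild-type range. With the replicate number as a block both genes passed, with log2 fold changes of 1.80 for PGM2 (adjusted p = 1.7e-05) and 1.21 for TSL1 (adjusted p = 0.00017). Leaving out the third Δrpl6a library gave a called PGM2 value of 2.28 (adjusted p = 0.00318). TPS1, TPS2 and NTH1 had log2 fold changes of 0.50 to 0.55, and TPS3, NTH2, ATH1 and UGP1 of -0.19 to 0.31, with adjusted p of 0.138 to 0.992.

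In Δrpl15b 0 of 9 genes were called, where 0.492% of all genes were; 3 had an unadjusted p below 0.05, and DESeq2 called 0. All 9 estimates were above 0, with a median of 0.41, and for 8 genes, all but ATH1, the libraries lay above those of the wild type. Without the share of all genes that separated like this, that count cannot be weighed. PGM2 was at 90.5, 110.0 and 77.3 CPM (log2 1.25 ± 0.49, adjusted p = 0.251) and TSL1 at 195, 226 and 194 CPM (1.08 ± 0.40, adjusted p = 0.219). The block on replicate number brought both over the threshold, with log2 fold changes of 1.29 (adjusted p = 0.00264) and 1.20 (adjusted p = 0.00132).

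In Δrps27b 0 of 9 genes were called against a background of 5.54%; 2 had an unadjusted p below 0.05, and DESeq2 called 0. The log2 fold changes of the complex were -0.18 to 0.16, and TSL1 was at 125, 113 and 75.4 CPM, within reach of the wild type. The largest estimate was that of UGP1, at 376, 526 and 354 CPM (log2 0.63 ± 0.26, adjusted p = 0.0854), whose chromosome had a median of 0.95 in this strain; the part of the chromosome in this value was not tested.

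The long-lived strains were compared with each other and with the short-lived ones. Between Δrpl7a and Δrpl9a 0 of 9 mRNA differences were called, where 2.35% of all genes were; 5 had an unadjusted p below 0.05, and DESeq2 called 0. The libraries of the 2 strains overlapped for all 9 genes. The estimates were all higher in Δrpl7a, by 0.33 (TPS3) to 0.83 (ATH1, ± 0.20, adjusted p = 0.00879) on the log2 scale; without the third Δrpl7a library ATH1 was called at 1.04 (adjusted p = 0.000326). An interval of 2 SE on each side of the estimate ran from -0.11 to 1.47 for TSL1 and from -0.29 to 1.59 for PGM2, so that differences of those sizes were not excluded. Against the mean of the 3 short-lived strains, that of Δrpl7a and Δrpl9a was higher for all 9 genes, where 7.03% of all genes were called higher. The difference was 2.75 ± 0.25 for TSL1, 2.63 ± 0.31 for PGM2 and 2.27 ± 0.19 for TPS2 on the log2 scale (adjusted p = 1.8e-07, 2.2e-06 and 7.99e-08), and 1.21 ± 0.13 at the least, for ATH1. These SE and p values rest on the spread of libraries within strains. With 2 long-lived and 3 short-lived strains, they do not measure how strains of each kind vary. TSL1 ranged from 484 to 1927 CPM with a median of 1117 in the 6 long-lived libraries, and from 75.4 to 288 CPM with a median of 194 in the 9 short-lived ones. The 2 sets of libraries did not overlap for TPS1, TPS2, TPS3, TSL1, NTH1 and NTH2, and overlapped for ATH1, PGM2 and UGP1. How many of all genes separated like this was not counted, so that this count cannot be weighed.

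Ribosome footprints, the mRNA fragments that ribosomes cover, were compared in the same way and gave a different picture. In Δrpl7a only the 2 genes with the largest mRNA differences were also called higher in footprints, TSL1 and PGM2, where 3.67% of all genes were called higher. PGM2 footprints were at 50.8, 37.7 and 34.9 CPM in the wild type and at 127, 159 and 128 CPM in Δrpl7a, a 3.35-fold difference (log2 1.75 ± 0.22, adjusted p = 2.09e-06). TSL1 footprints were at 130.5, 104 and 76.6 CPM in the wild type and at 215, 241 and 240.2 CPM in Δrpl7a, a 2.24-fold difference (1.16 ± 0.21, adjusted p = 0.000174); without the third wild-type library it was 0.99 and no longer called. TPS1 stayed below the fold threshold, with 259, 247 and 193 CPM in the wild type and 379, 417 and 367 CPM in Δrpl7a (0.73 ± 0.15, adjusted p = 0.000418). The other 6 genes had log2 fold changes of -0.22 to 0.34 with adjusted p of 0.0483 to 0.786.

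In Δrpl9a, where 8 genes were higher in mRNA, 0 of 9 were called in footprints, against 3.44% of all genes; 3 had an unadjusted p below 0.05, and DESeq2 called 0. TSL1 footprints were at 143, 122 and 88.8 CPM, overlapping the wild type (log2 0.18 ± 0.21, adjusted p = 0.532). PGM2 footprints were at 29.9, 28.7 and 22.5 CPM, all below the wild-type libraries (-0.60 ± 0.22, adjusted p = 0.0429). UGP1 footprints were at 354, 362 and 325 CPM against 434, 501 and 449 CPM in the wild type, a small difference (-0.41 ± 0.07, adjusted p = 0.000263) under the fold threshold. The long-lived strains differed from each other in PGM2 footprints, 5.10-fold higher in Δrpl7a than in Δrpl9a (log2 2.35 ± 0.22, adjusted p = 1.47e-07), the only 1 of 9 genes called in that comparison, where 1.97% of all genes were called higher. TSL1 was just under the fold threshold there, at 0.98 ± 0.21 (adjusted p = 0.00126), and was called at 1.00 to 1.14 without the first Δrpl7a library or without the first or second Δrpl9a library.

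In the short-lived strains the footprints went in different directions. In Δrps27b 5 of 9 genes were called lower, where 5.45% of all genes were, although none was called in its mRNA. PGM2 footprints were at 3.36, 3.11 and 3.11 CPM, from 25, 23 and 28 counted footprints, 12.9-fold below the wild type (log2 -3.69 ± 0.31, adjusted p = 6.79e-09). TSL1 footprints were at 11.7, 13.1 and 9.12 CPM, 9.23-fold below (-3.21 ± 0.26, adjusted p = 4.34e-09). The synthase and phosphatase genes fell less, TPS1 to 89.9, 97.9 and 97.0 CPM (-1.30 ± 0.15, adjusted p = 6.41e-07) and TPS2 to 65.6, 71.4 and 74.4 CPM (-1.09 ± 0.14, adjusted p = 2.38e-06).

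ATH1 footprints in Δrps27b, at 5.10, 6.23 and 7.12 CPM, were also called lower (-1.09 ± 0.22, adjusted p = 0.000337). TPS3, NTH1 and UGP1 were lower by less than the fold threshold, with log2 fold changes of -0.81 ± 0.10, -0.75 ± 0.15 and -0.51 ± 0.07 (adjusted p = 1.65e-06, 0.00024 and 9.41e-06). NTH2 had a value of -0.18 ± 0.12 (adjusted p = 0.254), and was the only gene whose libraries overlapped those of the wild type. UGP1 lay 0.51 below the wild type on the log2 scale while the median gene of its chromosome lay 0.90 above. The TPS2 call was lost without the first wild-type library (-0.96) and that of ATH1 without the first Δrps27b library (-0.98), both by the fold threshold.

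In Δrpl6a, with 2 footprint libraries, TSL1 and PGM2 were called lower, where 0.749% of all genes were. TSL1 was at 54.4 and 47.2 CPM (log2 -1.03 ± 0.25, adjusted p = 0.00623) and PGM2 at 15.5 and 22.7 CPM (-1.12 ± 0.27, adjusted p = 0.00565), all below the wild-type libraries. Both calls rested on few libraries. Without the first or the second Δrpl6a library, which leaves 1 library assumed to vary like the other groups, TSL1 was at -1.14 and -0.93 and PGM2 at -0.86 and -1.41. Without the first wild-type library they were at -0.83 and -0.93, and without the second TSL1 was at -1.01, none of these 7 values being called. NTH2 and UGP1 were lower by less than the fold threshold (-0.67 ± 0.14 and -0.45 ± 0.08, adjusted p = 0.00224 and 0.000579).

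In Δrpl15b TSL1 and PGM2 were called higher, where 0.899% of all genes were. PGM2 footprints were at 88.8, 76.9 and 167 CPM (log2 1.43 ± 0.22, adjusted p = 0.000204), and TSL1 footprints at 218, 142 and 299.8 CPM (1.08 ± 0.21, adjusted p = 0.00278). The third library was the highest for both genes. The TSL1 call was lost without that library (0.79, adjusted p = 0.0111), without the second wild-type library (1.08, adjusted p = 0.013) and without the third (0.90, adjusted p = 0.023). A fit of the 2 groups alone called neither gene (PGM2 adjusted p = 0.0108, TSL1 adjusted p = 0.045). TPS1 was at 0.57 ± 0.15 (adjusted p = 0.0205), and the other genes at 0.09 to 0.48. In the comparison of the long-lived with the short-lived strains, TSL1 and PGM2 were again the only genes called in footprints, where 1.85% of all genes were called higher, with log2 differences of 1.72 ± 0.15 and 1.70 ± 0.17 (adjusted p = 1.19e-08 and 6.47e-08). The libraries of the 2 sets overlapped for all 9 genes, and Δrpl15b reached 299.8 CPM for TSL1 and 167 CPM for PGM2. Mean PGM2 footprints were 138 CPM in Δrpl7a, 27.0 in Δrpl9a, 111 in Δrpl15b, 19.1 in Δrpl6a and 3.20 in Δrps27b. For TSL1 the means were 232, 118, 220, 50.8 and 11.3 CPM in the same order. The mean of long-lived Δrpl9a was thus below that of short-lived Δrpl15b for both genes, a difference that was not tested. The libraries of these 2 strains overlapped for TSL1 (88.8 to 142.7 CPM in Δrpl9a and 141.6 to 299.8 CPM in Δrpl15b) and not for PGM2. As for mRNA, the SE and p values rest on the spread of libraries within strains.

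**Figure D3:**
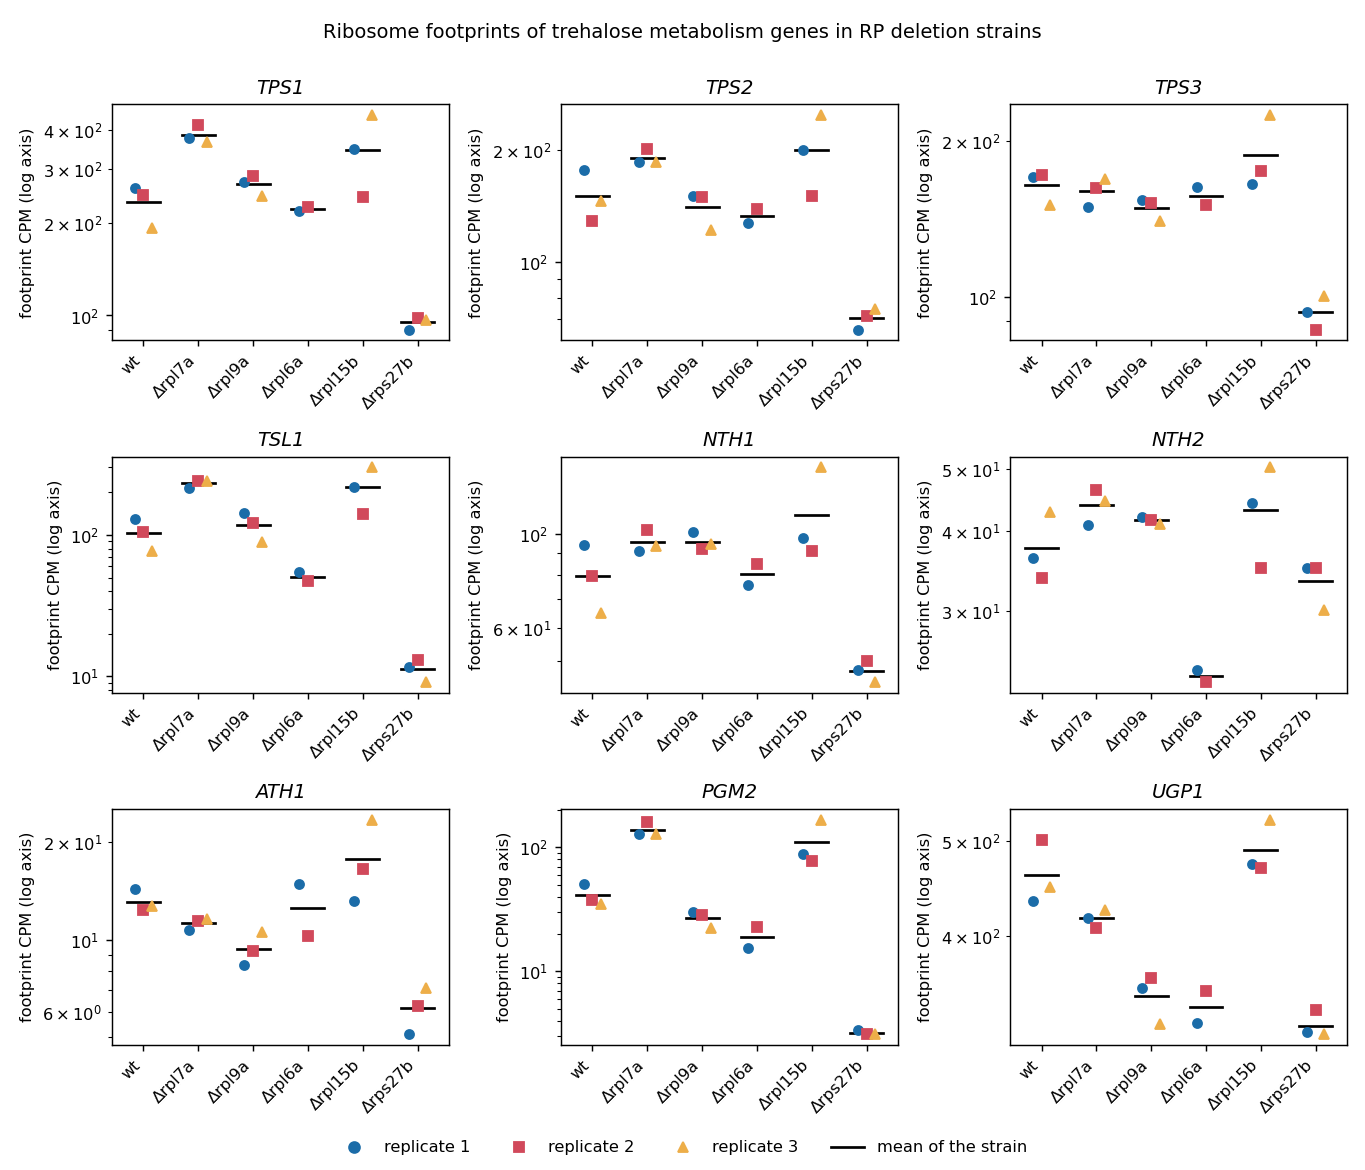
Footprint level of each gene (CPM, log axis) in each Ribo-seq library of the wild type and the 5 RP deletion strains (2 libraries for Δrpl6a, 3 for the others); points are libraries and bars are strain means. PGM2 was at 3.11 to 3.36 CPM in Δrps27b, 34.9 to 50.8 CPM in the wild type and 127 to 159 CPM in Δrpl7a.

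Translation efficiency was taken as the footprint difference minus the mRNA difference of a strain from the wild type, tested as an interaction over all 35 libraries. It was lower for all 9 genes in both long-lived strains, where 10% of 5524 genes were called lower in Δrpl7a and 6.93% in Δrpl9a. The median of the group was -1.87 in Δrpl7a and -1.58 in Δrpl9a on the log2 scale. In Δrpl7a the values ran from -1.48 ± 0.21 (TPS3, adjusted p = 4.38e-06) to -2.74 ± 0.49 (TSL1, adjusted p = 7.27e-05), with TPS2 at -2.65 ± 0.36 and PGM2 at -2.41 ± 0.58 (adjusted p = 1.69e-06 and 0.00138). In Δrpl9a they ran from -1.11 ± 0.29 (NTH1, adjusted p = 0.0047) to -4.12 ± 0.59 (PGM2, adjusted p = 1.09e-05), with TSL1 at -3.04 ± 0.50 (adjusted p = 4.85e-05). NTH1 in Δrpl9a was lost in 7 of the 12 fits that left out 1 library (-1.09 to -0.95), namely those without the first or second Δrpl9a mRNA library, the second or the third Δrpl9a footprint library, the first or the third wild-type mRNA library or the first wild-type footprint library.

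As a ratio of mean footprint CPM to mean mRNA CPM, PGM2 was at 1.05 in the wild type, 0.197 in Δrpl7a and 0.0607 in Δrpl9a, and TSL1 at 1.07, 0.160 and 0.130. The mRNA rise of these genes was thus met by a much smaller rise of footprints, or by none. Both measures are shares of their own library. The sources used here do not say that the mRNA and footprint libraries came from the same cultures, and the cells were collected differently, as a pellet for mRNA and by filtration after brief cycloheximide for footprints. A change in translation and a difference between these collections cannot be told apart.

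In Δrpl6a, where 1.72% of genes were called lower in translation efficiency, PGM2 was at -3.04 ± 0.65 (adjusted p = 0.00326) and TSL1 at -2.27 ± 0.54 (adjusted p = 0.00715). The TSL1 call was lost in 8 of the 11 fits without 1 library (-2.38 to -1.99), all but those without the third Δrpl6a mRNA library, the second wild-type mRNA library or the third wild-type footprint library. The PGM2 call was lost in 5 (-3.34 to -2.77), those without the second Δrpl6a mRNA library, either Δrpl6a footprint library, the third wild-type mRNA library or the first wild-type footprint library.

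In Δrps27b 4 genes were called lower, where 4.25% of all genes were: PGM2 at -4.14 ± 0.69 (adjusted p = 0.000105), TSL1 at -3.31 ± 0.53 (adjusted p = 6.93e-05), ATH1 at -1.16 ± 0.31 (adjusted p = 0.00868) and UGP1 at -1.14 ± 0.28 (adjusted p = 0.00433). TPS1 and TPS2 were at -1.25 each (± 0.36 and 0.36, adjusted p = 0.0139 and 0.0123), and were called at -1.24 and -1.25 with a replicate block and at -1.40 and -1.39 without the third Δrps27b mRNA library. The ATH1 call was lost in 11 of 12 fits without 1 library (-1.29 to -1.05), all but the one without the third Δrps27b mRNA library, and the UGP1 call in 5 (-1.13 to -0.93), those without the second Δrps27b mRNA library, the first or the third Δrps27b footprint library, the first wild-type mRNA library or the second wild-type footprint library. In Δrpl15b 0 of 9 genes were called, where 0.199% of all genes were; 0 had an unadjusted p below 0.05, DESeq2 called 0, and the estimates lay between -0.46 and 0.30. In that strain TSL1 differed from the wild type by -0.00 ± 0.48 in translation efficiency, with mRNA and footprints both about 1.08 higher on the log2 scale.

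**Figure D4:**
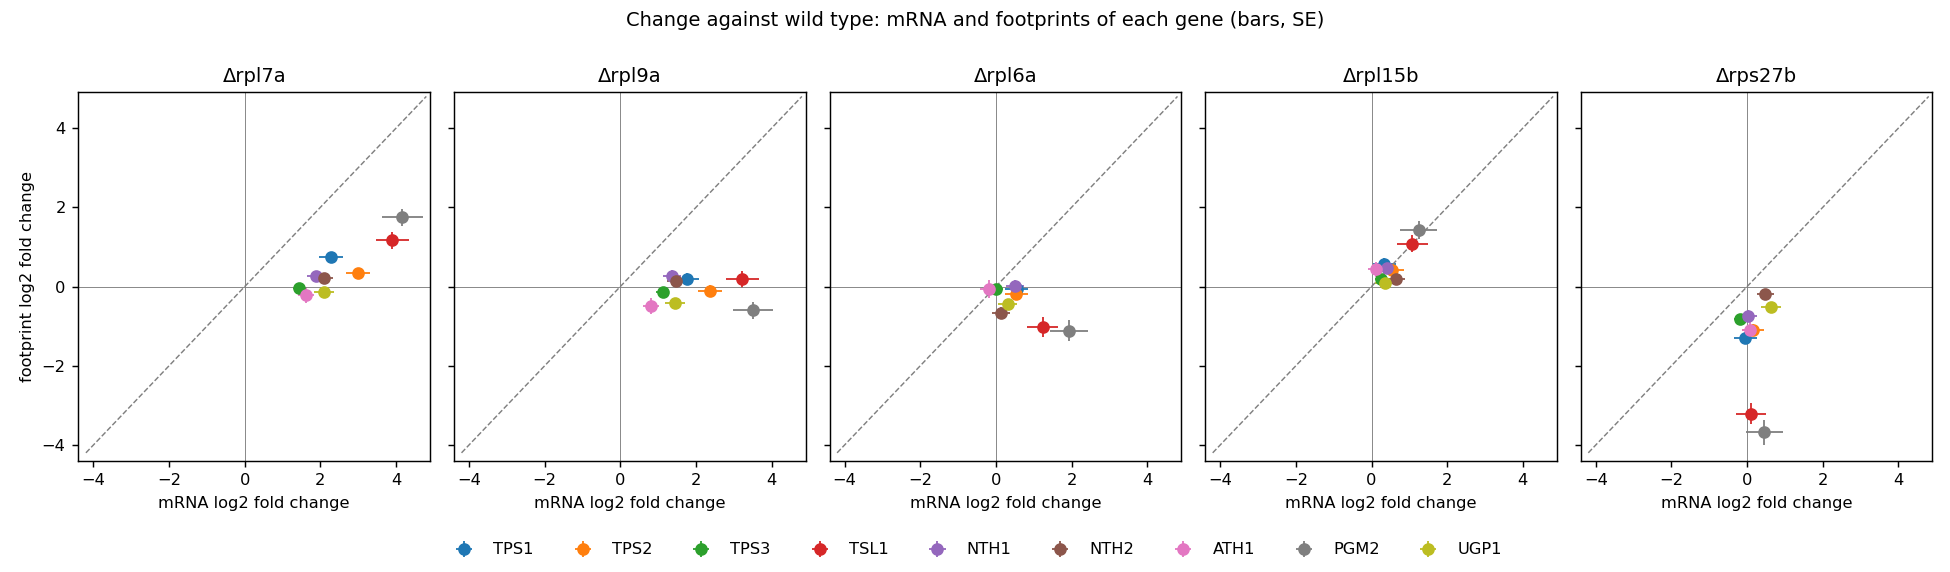
Log2 fold change against wild type of mRNA (horizontal) and of footprints (vertical) for each gene in each RP deletion strain; bars are SE and the dashed line marks equal changes. In Δrpl7a and Δrpl9a the genes sit to the right and below the line, with PGM2 at 4.17 and 1.75 in Δrpl7a; in Δrps27b PGM2 and TSL1 sit at -3.69 and -3.21 on the vertical axis.

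Genes next to trehalose in metabolism and control were examined as lists. The glycogen genes, which draw on the same UDP-glucose, had 6 of 7 called higher in the mRNA of Δrpl7a (median log2 fold change 3.87) and 6 of 7 in Δrpl9a (3.11), for example the glycogen synthase gene GSY2 at 3.87 ± 0.62 and 3.23 ± 0.60 and the branching enzyme gene GLC3 at 5.07 ± 0.60 and 4.26 ± 0.58. In footprints 4 of 7 were called higher in Δrpl7a (median 1.22) and 0 in Δrpl9a, where GDB1, the debranching enzyme, was called lower at -1.09 ± 0.26. In Δrps27b 5 of 7 were called lower in footprints (median -2.59), with GSY2 at -2.59 ± 0.18. Like PGM2 and TSL1, the glycogen phosphorylase gene GPH1 was higher in the footprints of Δrpl15b, at 1.65 ± 0.24, the only 1 of the 7 called there.

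Of the genes of hexose phosphorylation, GLK1 (glucokinase) and HXK1 (a hexokinase) were called higher in the mRNA of Δrpl7a at 3.41 ± 0.37 and 5.81 ± 0.55 and lower in the footprints of Δrps27b at -3.38 ± 0.25 and -3.28 ± 0.31. HXK2, the main hexokinase on glucose, was at -0.09 and PGM1, the minor phosphoglucomutase, at -0.41 in the mRNA of Δrpl7a, neither called. Genes of the general stress response had 11 of 12 called higher in the mRNA of Δrpl7a (median 4.26) and 10 of 12 in Δrpl9a (2.88), with the disaggregase gene HSP104 at 2.69 ± 0.41 and 2.09 ± 0.40. In footprints 3 of 12 were called higher in Δrpl7a, 1 higher and 3 lower in Δrpl9a, and 5 of 12 lower in Δrps27b (median -1.17), with HSP104 at -1.39 ± 0.13.

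Among regulators, MSN4 mRNA was called higher in Δrpl7a and Δrpl9a (log2 2.18 ± 0.17 and 2.00 ± 0.17), at 49.6 to 61.6 CPM and 45.1 to 56.9 CPM against 12.2 to 13.0 CPM in the wild type. The related factor MSN2 was at 75.9 to 84.7 CPM in Δrpl7a and 76.0 to 82.9 CPM in the wild type, and the heat shock factor gene HSF1 did not pass the test in either strain (0.04 and -0.01). Of 8 genes of protein kinase A, which in yeast activates Nth1, and of trehalase regulation, 5 were called higher in the mRNA of Δrpl7a, with DCS2 at 4.58 ± 0.43, and 4 in Δrpl9a. In footprints 0 of the 8 were called in Δrpl7a or in Δrpl9a, and in Δrps27b DCS2 was called lower (-3.17 ± 0.55) and TPK3, a catalytic subunit of the kinase, higher (1.61 ± 0.10). TPK3 lies on chromosome XI, whose footprints had a median of 0.90 in that strain with 125 of 300 genes called higher, and the part of the chromosome in its value was not tested.

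The genes varied together over the 18 mRNA libraries in which the deletion strains were measured. Pearson's r between log2 CPM of any 2 of them ran from 0.83 (ATH1 and PGM2) to 0.99 (TPS1 and NTH1), with a median of 0.94 over 36 pairs; the points share strain and library. With 4752 genes to choose from (mean log2 CPM not under 4), the pattern most like PGM2 was that of GPH1 (r = 0.992) and GSY1 (0.992), and the most like TSL1 that of GLC3 (0.987) and GLK1 (0.987). For TPS1 it was YAK1 (0.988), for TPS2 they were CTT1 and MSC1 (0.990 and 0.990) and for TPS3 FAA1 and PSK1 (0.984 and 0.982). For NTH1 they were YSC84 and GLK1 (0.989 and 0.989), for NTH2 MDG1 and LSP1 (0.977 and 0.976), for ATH1 NDI1 and GUT2 (0.981 and 0.980) and for UGP1 CUB1 and GPA2 (0.988 and 0.984).

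The overexpression strains addressed what a higher level of Gcn4 did to the same mRNAs. GCN4 mRNA was at 929 to 1142 CPM in wt(met), 3558 to 4009 CPM in PADH1-GCN4 and 5354 to 5655 CPM in S242L. In PADH1-GCN4 0 of 9 genes were called, where 8.47% of 5547 genes were; 5 had an unadjusted p below 0.05, and DESeq2 called 0. NTH1 alone had an adjusted p below 0.01. It was at 103, 134 and 120.0 CPM against 84.8, 95.8 and 85.7 CPM in wt(met) (log2 0.41 ± 0.11, adjusted p = 0.00852). ATH1 was at 23.1, 26.2 and 26.6 CPM against at most 20.6 CPM (0.36 ± 0.10, adjusted p = 0.0135). NTH2 was at 37.4, 36.1 and 37.9 CPM against 46.1, 43.1 and 42.9 CPM (-0.25 ± 0.09, adjusted p = 0.0297) and UGP1 at 201, 194 and 237 CPM against 287, 253 and 249 CPM (-0.33 ± 0.11, adjusted p = 0.0234). The libraries of these 4 genes and of TPS3 did not overlap between the strains, and all 5 differences were below the fold threshold. How many of all genes separated like this was not counted. PGM2, called in mRNA in both long-lived strains, was at 71.5, 139 and 94.9 CPM against 141, 145 and 103 CPM (-0.37 ± 0.21, adjusted p = 0.159), and TSL1 was at -0.12 ± 0.23 (adjusted p = 0.694).

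In S242L 0 of 9 genes were called, where 4.26% of 5545 genes were; 0 had an unadjusted p below 0.05, DESeq2 called 0, and the estimates were -0.43 (PGM2, ± 0.20) to 0.16 (UGP1, ± 0.10). Between PADH1-GCN4 and S242L 0 of 9 were called, where 3.48% of all genes were; 5 had an unadjusted p below 0.05, and DESeq2 called 0. NTH1 was higher in PADH1-GCN4 by 0.44 ± 0.10 (adjusted p = 0.00452), and NTH2 and UGP1 lower by -0.33 ± 0.08 and -0.48 ± 0.10 (adjusted p = 0.00877 and 0.00215), with no overlap of libraries and below the fold threshold. The 2 strains came in separate tables that share the wt(met) libraries, and a part of the tables in this difference was not tested. Of 12 stress genes, HSP12 and HSP26 were called lower in PADH1-GCN4 (-2.68 ± 0.22 and -2.17 ± 0.13) and in S242L (-1.09 ± 0.20 and -1.41 ± 0.16).

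In PGAL-GST-GCN4, where GCN4 mRNA was at 32003 to 41901 CPM against 868 to 999 CPM in wt(ura3), ATH1 was the only 1 of 9 genes called, where 14% of 5574 genes were called higher. ATH1 was at 67.6, 75.4 and 82.5 CPM against 22.7, 40.1 and 33.4 CPM, a 2.35-fold difference (log2 1.23 ± 0.22, adjusted p = 0.00142). NTH1 was at 257, 189 and 205 CPM against 126, 123 and 99.5 CPM (0.90 ± 0.17, adjusted p = 0.00225), and NTH2 at 186, 177 and 218 CPM against 107, 135 and 149 CPM (0.57 ± 0.17, adjusted p = 0.0204). The libraries of all 3 trehalase genes lay above those of wt(ura3), as did those of TPS2 and TPS3, so that this was not particular to the trehalases. How many of all genes separated like this was not counted.

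Of the synthase complex in this strain, TPS2 was at 175, 94.1 and 124 CPM against 71.5, 87.1 and 61.7 CPM (0.84 ± 0.23, adjusted p = 0.0155), and was called at 1.03 (adjusted p = 0.00623) without the second PGAL-GST-GCN4 library. TPS3 was at 0.57 ± 0.16 (adjusted p = 0.0151), TSL1 at 0.85 ± 0.35 (adjusted p = 0.0715) and TPS1 at 0.39 ± 0.18 (adjusted p = 0.103). PGM2 was at 258, 90.9 and 158 CPM against 133, 164 and 164 CPM (0.14 ± 0.32, adjusted p = 0.735), so that its 3 libraries fell on either side of wt(ura3). UGP1 was lower in every library, at 181, 107 and 152 CPM against 182, 249 and 185 CPM, without passing the test (-0.48 ± 0.22, adjusted p = 0.0929). Of 12 stress genes 8 were called higher (median 1.82), with HSP104 at 1.21 ± 0.17, and GAL2, the galactose permease, lower at -1.21 ± 0.23. Of 8 glucose-repressed genes 4 were called higher and 1 lower (median 1.44). Of 4 genes of hexose phosphorylation 2 were called lower (median -1.31), and of 7 glycogen genes 2 were called higher (median 0.77). The strains differ in plasmid backbone as well as in Gcn4, and these cannot be told apart.

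The wild types of the tables were scaled separately and were not tested against each other. PGM2 was at 29.8 to 46.6 CPM in BY4741 beside the deletion strains, 103 to 145 CPM in wt(met) and 133 to 164 CPM in wt(ura3). In yeast Pgm2 also serves galactose use. The summed mRNA of 4 galactose genes was 6.12 to 8.26 CPM, 5.08 to 7.07 CPM and 11954 to 18384 CPM in these wild types, and that of 12 stress genes 639 to 1049 CPM, 818 to 966 CPM and 893 to 2125 CPM.

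**Figure D5:**
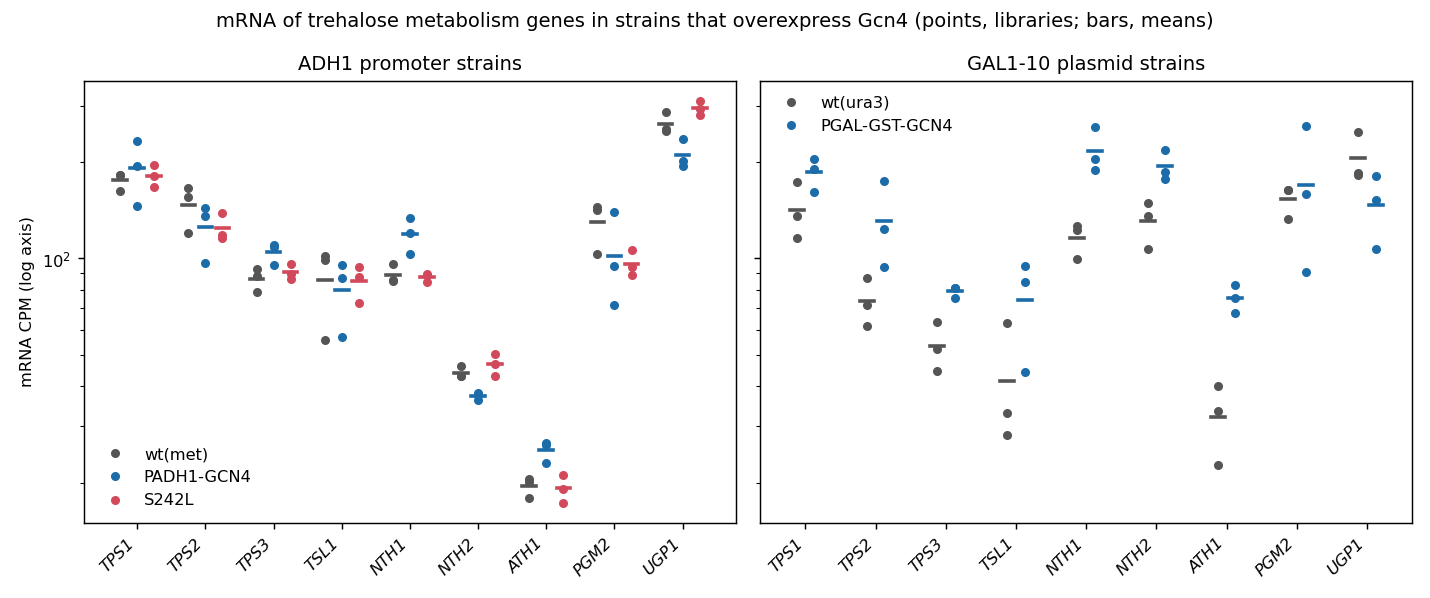
mRNA level of each gene (CPM, log axis) in strains that overexpress Gcn4 and their wild types; points are libraries (3 per strain) and bars are means. ATH1 in PGAL-GST-GCN4 was at 67.6 to 82.5 CPM against 22.7 to 40.1 CPM in wt(ura3), and the ADH1 promoter strains stayed within a fold change of 2 of wt(met) for every gene.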

How the data were processed

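Raw counts were deposited by the authors, with a column for each library. Per the methods of the study, reads were trimmed with the FASTX toolkit and aligned with segemehl to yeast transcripts, and those with a unique alignment were counted, in Ribo-seq restricted to coding regions and to read lengths with periodicity. The processing notes of the submitters name sacCer3 (R64). Use of strand in the counting is not given in sources used here. Deposited tables that hold the authors' own fold changes were left out, and 0 columns of sample values went unused. The 3 wt(met) libraries, present in 2 tables with the same counts, entered once.

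The test was edgeR 4.0.16 in R 4.3.3 (filterByExpr, TMM scaling, glmQLFit, glmQLFTest, two-sided, Benjamini-Hochberg over all genes). Genes were called past the study's thresholds, an adjusted p under 0.01 with a fold change over 2. SE belong to the log2 fold change and SD are over libraries. All libraries of a set entered 1 fit, but PADH1-GCN4 was fitted with wt(met) alone. Replicates are biological per the study's methods. Replicate numbers paired the mRNA libraries of the deletion strains (correlation of same-numbered deviations at least 0.174) and of PGAL-GST-GCN4 (at least 0.365), and not the footprints. No replicates agreed within sampling noise (lowest chi-square per gene 3.03). The fits were tested on simulated data. The text names all 9 members, the called genes with the highest mean level in each neighbouring list (others where chosen after their values were seen), and for each member the 2 genes with the most similar pattern, with 1 gene not reported here. Members, lists and tests were chosen with earlier results of these data known. The closing section gives the alternatives: DESeq2 1.42.0, other scaling and filters, no fold minimum, smaller fits, a replicate block, each library left out and, chosen after seeing the data, the third mRNA libraries left out together.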

Additional observations from a re-analysis of the deposited data

Results flagged for a closer look

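PGM2 footprints differed between the long-lived strains themselves, by 2.35 on the log2 scale (Δrpl7a above Δrpl9a), by a test of that difference. The following were noticed because every library of one strain lay above its wild type and every library of another lay below. The differences between these strains were not tested, and how many of all genes show such a pattern was not counted. TPS3 mRNA was at 1.44 ± 0.18 in Δrpl7a and -0.18 ± 0.18 in Δrps27b (SE). ATH1 mRNA was at 1.63 ± 0.21 in Δrpl7a and -0.19 ± 0.22 in Δrpl6a. Neither of the values below the wild type was called, and both were about the size of their SE. In footprints, Δrpl7a and Δrps27b were on opposite sides for TPS1 (0.73 and -1.30), TPS2 (0.34 and -1.09), TSL1 (1.16 and -3.21) and PGM2 (1.75 and -3.69). The Δrpl7a values of TPS1 and TPS2 were not called. NTH2 mRNA was at -0.25 in PADH1-GCN4 and 0.57 in PGAL-GST-GCN4, each against its own wild type and neither called.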

How the results depend on the processing

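Of 3150 values of single genes under the alternatives, 3051 kept their side of the threshold, 52 lost a call and 47 gained one. The sign changed in 0 called values and in 68 uncalled ones. The 9 calls in Δrpl7a mRNA and the 8 in Δrpl9a mRNA stood with each library left out. Without the fold minimum the count of genes called was 1 instead of 0 between Δrpl7a and Δrpl9a mRNA, 9 in Δrpl9a mRNA, 3 in Δrpl7a footprints, 1 in Δrpl9a footprints, 4 in Δrpl6a footprints, 8 in Δrps27b footprints, 4 between Δrpl7a and Δrpl9a footprints, 6 for long-lived against short-lived footprints, 1 in PADH1-GCN4, 3 between PADH1-GCN4 and S242L, and 2 in PGAL-GST-GCN4. With the replicate block it was 2 in Δrpl6a mRNA, 2 in Δrpl15b mRNA and 1 in Δrpl6a footprints, whose numbers did not pair; the block gave 6 for translation efficiency in Δrps27b and changed no other call. DESeq2, a fit of its own groups and the fit without the third mRNA libraries also gave 6 there. Δrpl6a mRNA had 1 call by DESeq2, 1 in a fit of its own groups and 2 without the third mRNA libraries; Δrpl15b mRNA had 1 in each of the latter 2; and Δrpl15b footprints had 0 in a fit of their own groups. With 1 library left out at a time the counts ranged over 0 to 2 for Δrpl6a footprints, 0 to 2 for Δrpl6a translation efficiency, 2 to 6 for Δrps27b translation efficiency, 8 to 9 for Δrpl9a translation efficiency, 1 to 2 for Δrpl15b footprints, 1 to 2 for Δrpl7a footprints, 4 to 5 for Δrps27b footprints, 0 to 1 for Δrpl6a mRNA, 0 to 1 between Δrpl7a and Δrpl9a mRNA, 1 to 2 between their footprints, and 1 to 2 for PGAL-GST-GCN4. The share of all genes called was not counted under these alternatives. Their counts thus show only how the calls of the 9 genes depend on the processing. The causes of these changes were not tested beyond what each alternative leaves out. PGM2 footprints in Δrps27b rest on 23 to 28 counts per library.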
